A study of Homo sapiens with 40 samples.

Results

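NSD2-dTAG clone 8 of the myeloma line KMS-11 was compared after 21 days of the compound dTAGV-1 (2 libraries) with the same clone at day 0, without compound (2 libraries). The 4 libraries were taken by their labels from 30 peak lists for the histone mark H3K27me3, out of 40 libraries in the series. Among the 30 lists are also those of NSD2 knockout clones of KMS-11 and of their own parental line, which entered the same statistical fit. KMS-11 is a human multiple myeloma line that carries a t(4;14) translocation and therefore overproduces NSD2, a histone methyltransferase. In clone 8 the labels give the genotype NSD2_dTAG knockin, so that NSD2 carries a degron tag, and dTAGV-1 at 100 nM recruits the VHL ubiquitin ligase to the tagged protein for its degradation. The mark was mapped by CUT&Tag, in which an antibody brings a transposase to marked chromatin, with 50000 nuclei and 13 PCR cycles per library. The clone was also set beside the dTAG parental line (genotype WT, untagged, day 0 untreated and day 21 with the compound, for which the labels give no dose) and beside clone 11 (genotype NSD2_dTAG knockin, the same 2 time points). All of these cells carry the translocation. Clone 8 is a single clone, and its replicates are described in the series text as biological. The peak lists do not measure NSD2 protein, so its loss at day 21 was not checked here.

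H3K27me3 is laid down by Polycomb repressive complex 2 and marks silenced genes, above all developmental regulators with CpG-rich promoters and genes of other cell lineages. NSD2 deposits H3K36me2 across gene bodies and between genes, and Polycomb repressive complex 2 methylates nucleosomes with H3K36 methylation poorly. Where NSD2 is overproduced, as in t(4;14) myeloma, H3K36me2 is broad and H3K27me3 is limited to fewer domains. The comparison addresses how H3K27me3 is distributed once NSD2 has been degraded for 21 days.

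The promoters below show the contrast between sequences that lay inside a peak only at day 21 and sequences that lay inside a peak throughout. They were chosen after their values had been seen. Each is the 250 bases before the RefSeq start on GRCh38.p14, 5′ to 3′, in lower case with each CG dinucleotide in capitals. CG reads the same on both strands. It occurred at least once in 97.3% of the 15412 promoter windows that matched a gene by symbol, with a median of 17 in the 250 bases.
FCRL5: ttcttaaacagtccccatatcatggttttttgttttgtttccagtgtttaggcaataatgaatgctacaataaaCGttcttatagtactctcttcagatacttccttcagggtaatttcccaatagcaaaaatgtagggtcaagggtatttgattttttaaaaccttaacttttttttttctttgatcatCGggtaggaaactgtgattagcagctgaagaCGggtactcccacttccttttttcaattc
CSF1R: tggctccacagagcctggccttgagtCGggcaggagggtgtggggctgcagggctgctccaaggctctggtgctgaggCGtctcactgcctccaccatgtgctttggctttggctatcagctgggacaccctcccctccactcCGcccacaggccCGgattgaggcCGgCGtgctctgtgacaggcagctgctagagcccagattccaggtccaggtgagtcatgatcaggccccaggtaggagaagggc
INHBC: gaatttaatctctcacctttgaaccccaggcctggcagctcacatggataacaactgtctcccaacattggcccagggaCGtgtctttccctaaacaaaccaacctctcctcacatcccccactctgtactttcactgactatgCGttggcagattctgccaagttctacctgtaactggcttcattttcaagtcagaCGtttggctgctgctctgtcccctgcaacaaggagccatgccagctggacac
SOST: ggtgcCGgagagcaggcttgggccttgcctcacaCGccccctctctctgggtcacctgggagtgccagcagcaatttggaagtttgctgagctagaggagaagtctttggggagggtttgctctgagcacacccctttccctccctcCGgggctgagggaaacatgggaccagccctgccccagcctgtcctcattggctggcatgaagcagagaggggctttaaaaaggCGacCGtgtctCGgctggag
GLIS1: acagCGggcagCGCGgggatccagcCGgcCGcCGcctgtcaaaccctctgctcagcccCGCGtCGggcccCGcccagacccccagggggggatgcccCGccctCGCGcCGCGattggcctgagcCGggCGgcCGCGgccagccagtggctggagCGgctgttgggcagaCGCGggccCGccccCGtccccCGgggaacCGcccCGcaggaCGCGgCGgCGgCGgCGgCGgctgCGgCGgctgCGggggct
GBX1: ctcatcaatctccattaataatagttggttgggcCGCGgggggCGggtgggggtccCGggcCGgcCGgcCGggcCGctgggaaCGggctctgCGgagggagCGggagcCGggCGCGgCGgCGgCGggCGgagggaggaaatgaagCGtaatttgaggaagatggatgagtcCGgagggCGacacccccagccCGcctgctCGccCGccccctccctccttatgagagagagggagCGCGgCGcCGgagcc
The FCRL5 promoter (chr1:157552516-157552765, minus strand), of an Fc receptor-like protein of B and plasma cells, holds 3 CG and lay 0% inside peaks in both day 0 libraries and 100% in both day 21 libraries. The promoter of CSF1R (chr5:150113366-150113615, minus strand), the receptor of macrophage growth factor, holds 6 CG and was covered by 0% and 0% at day 0 and by 72.0% and 84.8% at day 21. The promoters of INHBC (chr12:57434534-57434783, plus strand, 3 CG), an inhibin subunit, and of SOST (chr17:43758792-43759041, minus strand, 6 CG), the secreted Wnt antagonist sclerostin, went from 0% in both libraries to 100% in both. The SOST gene body was already 39.1% and 31.8% covered in the untreated parental line. The last 2 promoters are CpG-rich. GLIS1 (chr1:53739165-53739414, minus strand, 37 CG) and GBX1 (chr7:151167695-151167944, minus strand, 28 CG), both transcription factor genes, lay 100% inside peaks in all 4 libraries, although both gene bodies gained coverage.

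More of the genome was called as H3K27me3 at day 21. Merged peaks covered 69.9 Mb and 36.1 Mb in the untreated libraries, rising to 153 Mb and 111 Mb in the treated ones. Both day 21 libraries lay above both day 0 libraries, with a ratio of means of 2.49. The p from exact permutation, two-sided, was 0.333 and cannot be smaller with 2 libraries a side. Depth differed in the same direction. The background pileup (fragments per position), estimated from the peaks and standing for depth, was 2.31 and 0.922 at day 0 and 2.84 and 2.35 at day 21. Day 0 replicate 2 was the shallowest of the 30 lists. Day 0 replicate 1 and day 21 replicate 2 had nearly equal pileup, and between these the called length rose from 69.9 Mb to 111 Mb, a ratio of 1.59. In the parental line, where mean pileup rose 1.42-fold from day 0 to day 21 and in clone 8 by 1.61-fold, the called length ratio was 1.35. Length in peaks with a −log10 q of at least 5 summed to 33.5 Mb (replicate 1) and 7.36 Mb (replicate 2) before treatment, then to 34.3 Mb and 16.5 Mb after it, so it was nearly level in replicate 1 and higher in replicate 2. Replicate 1 had the longer list in 13 of the 15 groups, and the greater length of such strong peaks in all 15, so the pair of nearly equal pileup also differs in replicate number.

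**Figure D1:**
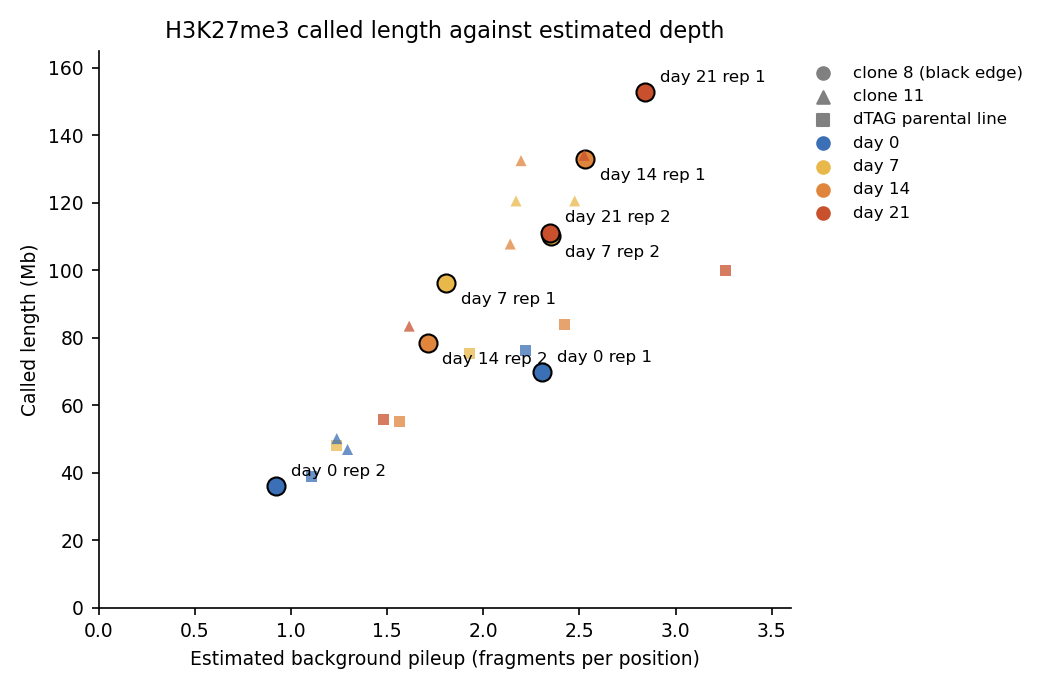
Called length (Mb) against estimated background pileup (fragments per position) for the 24 libraries of the dTAG experiment, coloured by day, with clone 8 as circles with a black edge and a label (rep, replicate), clone 11 as triangles and the parental line as squares. Day 21 replicate 2 of clone 8 sits at 111 Mb and day 0 replicate 1 at 69.9 Mb with nearly the same pileup.

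The peaks that appeared at day 21 were narrower and had lower −log10 q than the others, and lay at all distances from the untreated parental line's peaks. On average 28.5% of the peaks of a day 21 list overlapped a peak of a day 0 list by at least 1 bp, whereas 83.7% of the day 0 peaks overlapped a day 21 peak, and 67.3% overlapped between replicates of a day. The day 21 peaks that met no day 0 peak made up 67.5% and 58.5% of the lists. Their median width was 501 and 566 bp, against 927 and 925 bp for the others, and 5.50% and 1.75% of them reached a −log10 q of 5, against 44.1% and 29.2%. Called length inside peaks of the untreated parental line was 53.5 Mb and 29.5 Mb before treatment, compared with 56.7 Mb and 47.8 Mb after it. More than 50 kb from any such peak it grew from 0.238 Mb and 0.202 Mb to 17.1 Mb and 9.86 Mb, which was 11.2% and 8.88% of the day 21 length. Within 2 kb it went from 12.7 Mb and 5.13 Mb to 25.1 Mb and 18.4 Mb, at 2 to 10 kb from 2.69 Mb and 0.843 Mb to 24.2 Mb and 15.9 Mb, and at 10 to 50 kb from 0.748 Mb and 0.406 Mb to 29.7 Mb and 19.1 Mb. Median fold enrichment of the new and the other day 21 peaks was 2.63 and 2.74 in replicate 1 and 2.72 and 2.68 in replicate 2. The share of called length inside protein-coding genes was 52.4% and 53.3% at day 0 and 43.9% and 44.4% at day 21.

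Across the autosomes, far more 25-kb windows (bins) gained coverage than lost it. A bin was scored by the percent of its bases inside peaks, and 48604 of 114924 bins, those with a mean between 1% and 99% over the 30 libraries, were tested. In limma, with Benjamini-Hochberg adjusted p under 0.05, 17345 bins were higher at day 21 (35.7% of those tested) and 73 were lower (0.15%). The median change of all tested bins was 5.23 percentage points, and 89.4% of them had a positive change. Bins bare at day 0 were tested only if other groups covered them, so these shares are conditioned in part on a gain. Without the filter, 11469 of all 114924 bins were higher (9.98%), 46.8% had a positive change and the median change was 0. In 48.6% of all bins there was no peak in any of the 4 libraries. When coverage was scaled to equal called length per library, 11293 bins were higher and 5149 lower, around a median of 1.77. Between the 2 libraries of nearly equal pileup, in the same fit, 1632 were higher and 16 lower. The spread behind these tests is pooled over the 15 groups, and a fit on the 4 compared libraries alone called 7164 higher and 28 lower. Omitting day 0 replicate 1 left 10703 bins higher and 20 lower. Omitting day 0 replicate 2 left 6353 higher. Omitting day 21 replicate 1 left 6064 higher and 15 lower, and omitting day 21 replicate 2 left 19 lower.

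Relative to day 0, coverage rose most where the untreated parental line had no peak, while in percentage points it rose more in bins with parental coverage above 0 and under 20%. Over all 83394 bins without parental coverage, tested or not, mean coverage was 0.0404% and 0.0263% at day 0 and 1.99% and 1.23% at day 21. The treated parental line had 0.171% and 0.0519% in the same bins, and clone 11 rose from 0.0240% and 0.0298% to 1.63% and 0.962%. In bins above 0 and under 5% in the untreated parental line it went from 2.70% and 1.26% to 8.84% and 6.44%, and in bins at 5 to 20% from 11.9% and 5.84% to 16.7% and 13.0%. Over the 2692 bins that were covered by 20% or more in the untreated parental line, clone 8 had 33.4% and 19.3% at day 0 and 33.4% and 27.5% at day 21. Replicate 1 was thus level in this class and replicate 2 higher. Of the tested bins in that strong class 2.67% passed as higher, against 20.0% of those at 5 to 20% and 35.8% of those above 0 and under 5%. Bins without parental coverage entered the test only if other groups were covered, so their share called (50.3%) is conditioned on a gain.

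The change differed by gene content and by chromosome. Over all bins, tested or not, those partly inside protein-coding genes went from 6.14% and 3.48% to 10.4% and 8.09%. Bins without such a gene went from 1.34% and 0.620% to 3.95% and 2.75%, and bins wholly inside genes from 1.84% and 0.884% to 4.15% and 2.90%. Chromosome 19, the most gene-dense with 24.5 protein-coding genes per Mb, had the lowest share of gained bins of the 22 autosomes. Over all its bins, mean coverage was 10.3% and 5.84% at day 0 and 10.1% and 7.96% at day 21, so the groups overlapped. It held 12 of the 73 lower bins, and 4.99% of its tested bins passed as higher. Gene-poor chromosome 18 (3.34 genes per Mb) went from 1.02% and 0.488% to 4.65% and 3.25%, and 42.6% of its tested bins passed as higher. The share did not follow gene density throughout. Of the tested bins it was 34.4% on chromosome 13, the gene-poorest autosome (2.94 genes per Mb), and 25.4% on chromosome 21 (4.22 genes per Mb), against 35.7% of all. Only 18.2% of the bins of chromosome 13 were tested, against 42.3% of all bins, so its share is conditioned in part on a gain. Without the filter, 4.46% of the bins of chromosome 13 and 5.14% of those of chromosome 21 passed as higher. This compares with 9.98% of all bins, 12.7% on chromosome 18 and 2.18% on chromosome 19. The shares of tested bins on chromosomes 2, 3 and 5 were 43.2%, 42.9% and 43.0%, and that of chromosome 22 was 16.7%. Without the filter these were 12.3%, 11.3%, 11.7% and 5.22% of all their bins.

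**Figure D2:**
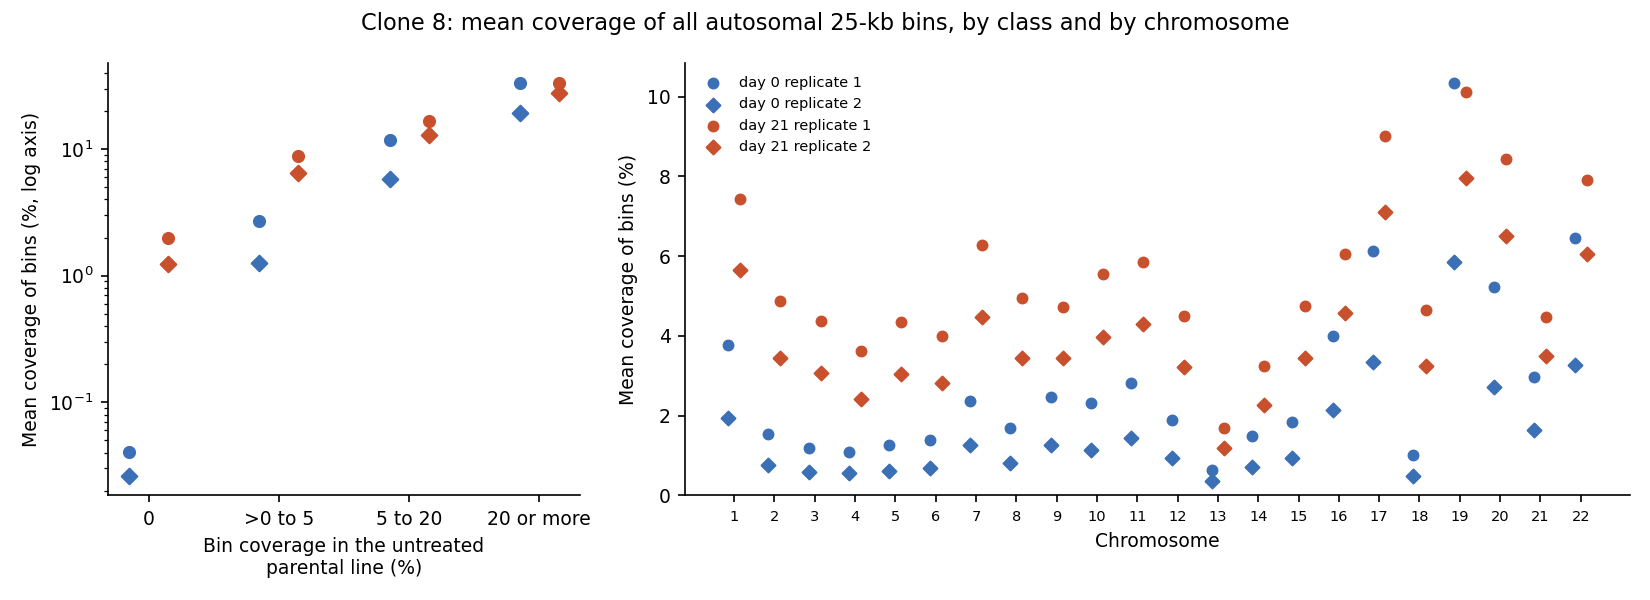
Mean percent of all autosomal 25-kb bins inside peaks in each of the 4 clone 8 libraries (blue day 0, red day 21, circles replicate 1, diamonds replicate 2), by coverage in the untreated parental line on a log axis (left) and by chromosome (right). The day 21 points lie far above day 0 in bins bare in the parental line, while the groups meet in bins at 20% or more and on chromosome 19.

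Gained bins formed 8872 runs, of which 5002 were single bins, and 58 runs held 10 bins or more. The longest run, 575 kb on chromosome 2 (157875001 to 158450000, hg38), takes in UPP2, a uridine phosphorylase gene, CCDC148 and ACVR1, an activin receptor gene. Its mean coverage was 1.25% and 0.358% at day 0 and 16.0% and 10.6% at day 21, with a parental change of 0.53 points. The next longest spanned 475 kb on chromosome 2 (62225001 to 62700000, with TMEM17 and EHBP1), and its values were 1.05% and 0.834% at day 0 and 13.7% and 11.6% at day 21. A 450-kb run on chromosome 1 (162625001 to 163075000) around the collagen receptor gene DDR2 and the G protein regulator RGS4 went from 0.836% and 0.608% to 16.3% and 12.5%. Runs of 425 kb on chromosome 1 (229650001 to 230075000, with GALNT2) and 375 kb on chromosome 2 (54075001 to 54450000, with ACYP2) changed by 14.0 and 13.8 points. The largest change in a single bin was at CTSK, the cathepsin K gene of bone-resorbing cells (chromosome 1, 150775001 to 150800000). It was 5.05% and 0% covered at day 0 and 40% and 35.4% at day 21, a change of 35.1 points (SE 6.67, limma adjusted p = 0.00104). The other 2 were a bin on chromosome 2 (74800001 to 74825000), up by 34.6 points, and a bin beside the proteasome gene PSMB4 (chromosome 1, 151375001 to 151400000), up by 34.2 points.

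Losses were isolated. The 73 lower bins fell into 70 runs, none longer than 2 bins. The runs of 2 bins were at ZNF677 on chromosome 19 (53225001 to 53275000), at CD93 on chromosome 20 (23075001 to 23125000) and at the defensin genes DEFA4 and DEFA6 on chromosome 8 (6900001 to 6950000). The ZNF677 run held 7.59% and 2.18% at day 0 and 0% and 0% at day 21. Among single bins the largest drops were on chromosome 19 (56725001 to 56750000), from 29.6% and 14.1% to 0% and 1.29%, and within MYT1L, a neuronal transcription factor gene on chromosome 2 (1825001 to 1850000), from 27.0% and 12.4% to 0% and 0%. A bin on chromosome 1 (30425001 to 30450000) went from 33.0% and 24.9% to 13.0% and 11.1%. In the parental line these 3 bins changed by −4.94, 4.50 and 11.8 points.

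Gene bodies showed the same imbalance. Of 19451 protein-coding genes of at least 1 kb, 13977 passed the coverage filter, and 2370 were higher at day 21 (17% of those tested) and 34 lower (0.243%). The median change of all tested genes was 2.42 points and 79.6% of them had a positive change. After scaling to equal called length 1478 genes were higher and 2651 lower, around a median of −1.16. The 2370 gained genes had a median change of 9.26 points, with a range of 1.01 to 96.1, and 582 of them had no peak in either day 0 library. Genes without a day 0 peak entered the test only if other libraries covered them, so this count is conditioned in part on a gain. In 2368 of them both day 21 libraries lay above both day 0 libraries, which held for 47% of all tested genes. Longer genes passed more often: 5.65% of tested genes of 1 to 10 kb and 12.3% of those of 10 to 50 kb. The share was 34.4% at 50 to 200 kb and 56.5% at 200 kb or more. The median change in these 4 classes was 2.47, 2.04, 3.08 and 2.90 points. The share called thus rose with length far more than the median change did. A fit on the 4 compared libraries alone called 0 genes in either direction (3307 at unadjusted p under 0.05), one on the 8 libraries of clone 8 called 17 higher and 2 lower, and the 2 libraries of nearly equal pileup gave 135 and 18. Without day 0 replicate 2 the counts were 759 higher and without day 21 replicate 1 they were 689 higher and 9 lower. Without day 21 replicate 2 the genes lower were 14. Of the 85 called genes followed through the alternatives, 56 stayed called after scaling and 8 between the libraries of nearly equal pileup.

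The 10 largest gains among genes of 10 kb or more whose days did not overlap ranged from 30.7 to 44.2 points. ISM2, which encodes a secreted protein, was 6.82% and 3.44% covered at day 0 and 37.9% and 33.8% at day 21, a change of 30.7 points (SE 5.98, limma adjusted p = 0.00229). SYNPO2L, a heart and muscle cytoskeletal gene, went from 2.87% and 0% to 41.0% and 38.0% (change 38.1, SE 7.64, adjusted p = 0.00278). Day 21 lay far above day 0 in both genes. MYBPHL, which encodes a sarcomere protein of the heart, had the largest of these changes, from 1.76% and 0% to 35.3% and 54.8% (change 44.2, SE 10.4, adjusted p = 0.00775). LRRC15 went from 6.31% and 5.99% to 41.3% and 33.2% (change 31.1, SE 7.14, adjusted p = 0.00664). RD3, a photoreceptor gene, went from 2.95% and 0% to 41.0% and 37.0% (change 37.5, SE 9.97, adjusted p = 0.0154). KDF1, a keratinocyte differentiation gene, was already covered at day 0, by 26.0% and 14.3%, and reached 54.3% and 57.6%. The untreated parental line had 41.8% and 23.4% in KDF1. CXCR5, the chemokine receptor of follicular B cells, went from 24.9% and 13.0% to 57.9% and 45.0% (change 32.5, SE 9.42, adjusted p = 0.0241). LDLRAD1, C1orf116 and OPTC, the last of which encodes the eye proteoglycan opticin, changed by 35.1, 34.0 and 31.1 points. In LDLRAD1 day 0 replicate 1 was at 36.9% and replicate 2 at 6.06%, so its day 0 libraries differed widely. The untreated parental line had 46.5% and 29.8% in LDLRAD1. Among shorter genes, outside the naming rule and picked out for its value, GARIN4 (chromosome 1) had the largest gain of all, from 0% and 0% to 92.2% and 100%.

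The 5 largest gains in genes of 200 kb or more ranged from 15.5 to 18.1 points. ATXN7L1 was 2.58% and 0.837% covered at day 0 and 21.1% and 16.8% at day 21 (change 17.2, SE 3.02, adjusted p = 0.00119). NOS1AP, an adaptor of neuronal nitric oxide synthase, went from 5.27% and 2.46% to 22.5% and 19.5% (change 17.1, SE 3.20, adjusted p = 0.00182). ASTN1, a neuronal migration gene, went from 3.81% and 0.542% to 20.8% and 14.5% (change 15.5, SE 2.85, adjusted p = 0.00164). The naming rule required no overlap between the days. In these 3 genes the gap between the days was also wider than the difference between replicates of a day. GLIS1 reached 26.3% and 18.1% from 6.30% and 1.85%, and TBXAS1, the thromboxane synthase gene, reached 22.0% and 19.1% from 6.25% and 2.41%. At days 7 and 14 the means of the 5 genes lay between those of day 0 and day 21, for example 12.8% and 14.2% at day 7 and 18.6% and 10.8% at day 14 in ATXN7L1.

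Few genes lost coverage, and the 10 largest losses among genes of 10 kb or more ranged from −5.92 to −20.8 points. CNN2, a calponin gene on chromosome 19, was 22.1% and 22.2% covered at day 0 and 8.56% and 6.93% at day 21, a change of −14.4 points (SE 3.06, adjusted p = 0.00409). SLC31A2, a copper transporter gene, went from 14.3% and 13.2% to 2.44% and 4.2% (change −10.4, SE 2.12, adjusted p = 0.00298). ZNF354C, a zinc finger gene, went from 30.2% and 11.4% to 0% and 0% (change −20.8, SE 5.01, adjusted p = 0.00867). All 3 were lower in both day 21 libraries, which the naming rule required. TBX5, a heart and limb transcription factor gene, went from 8.13% and 3.70% to 0% and 0% (change −5.92, SE 1.72, adjusted p = 0.0245). The splicing factor gene LSM4, PWWP2B, the chaperone gene DNAJC5 and the zinc finger genes ZNF677, ZNF134 and ZNF665 changed by −10, −7.60, −6.76, −8.01, −6.63 and −6.01 points. Of all 34 lost genes, 18 were under 10 kb, which is 0.446% of the 4032 tested genes of 1 to 10 kb, against 0.243% of all tested genes. On chromosome 19 lay 8 of the 34, and 1240 of the 13977 tested genes. Both day 21 libraries were below both day 0 libraries in all 34, and in 4.31% of all tested genes. The lowest of all, FRAT1, a Wnt pathway gene under 10 kb that was picked out for its value, went from 85.5% and 84.7% to 39.9% and 9.49% (adjusted p = 0.0481).

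**Figure D3:**
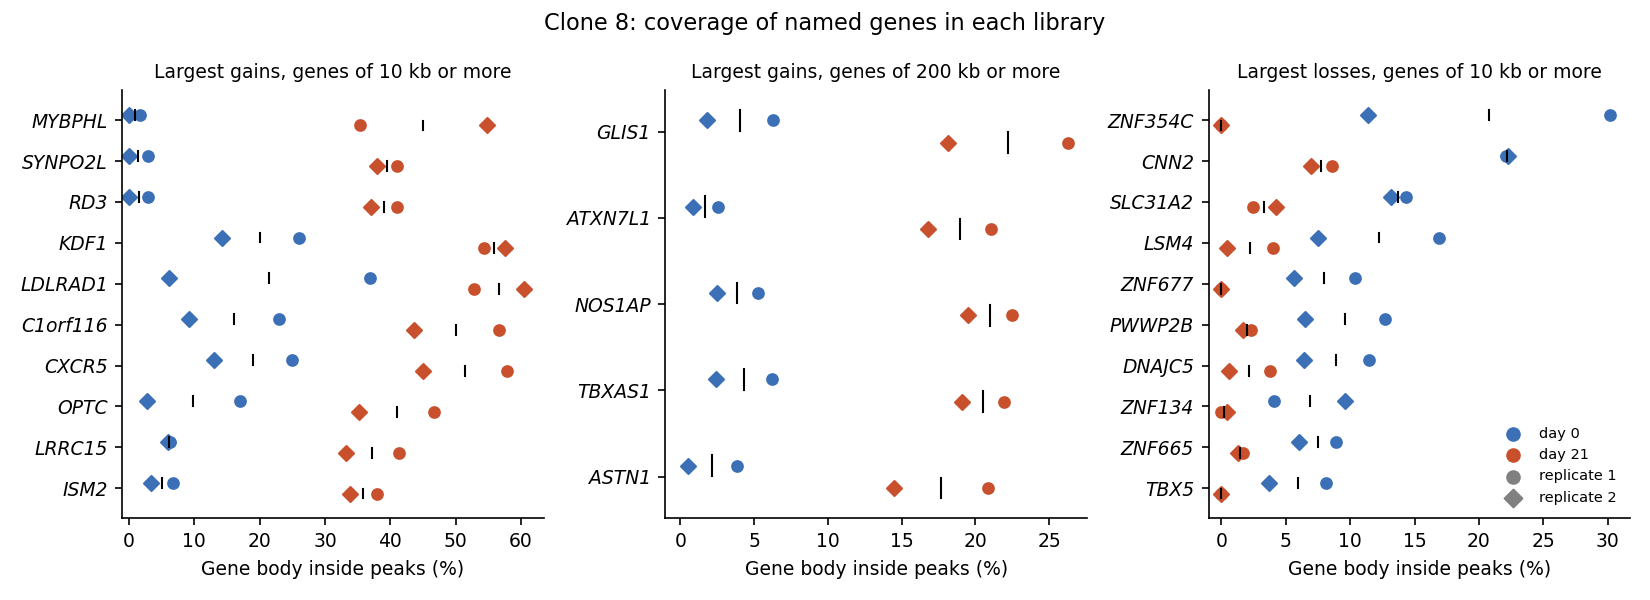
Percent of each gene body inside peaks in the 4 clone 8 libraries (blue day 0, red day 21, circles replicate 1, diamonds replicate 2, bars the means of 2) for the 10 largest gains, the 5 largest gains in genes of 200 kb or more and the 10 largest losses. Genes were picked for not overlapping between the days, so the separation is by choice, and the distances are what the plot adds.

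Around gene starts the 2 sets of genes differed in shape. In the first 2 kb after the start, the 20 lost genes with a promoter window had a mean coverage of 57.3% and 51.8% at day 0 and 20.7% and 16.7% at day 21. At 20 to 22 kb the same genes had 3.84% and 0.600% at day 0 and 3.78% and 0.925% at day 21. In the 1928 gained genes with a window, the first 2 kb went from 19.0% and 13.5% to 30.0% and 28.1%, and the step at 20 to 22 kb from 2.08% and 0.882% to 11.7% and 8.80%. The sets were chosen on coverage of the same gene bodies, so these profiles describe where the change lay and carry no test. Over all 15412 genes with a window, the first 2 kb had 22.6% and 14.6% at day 0 and 25.2% and 22.4% at day 21, so day 21 replicate 2 lay just below day 0 replicate 1.

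**Figure D4:**
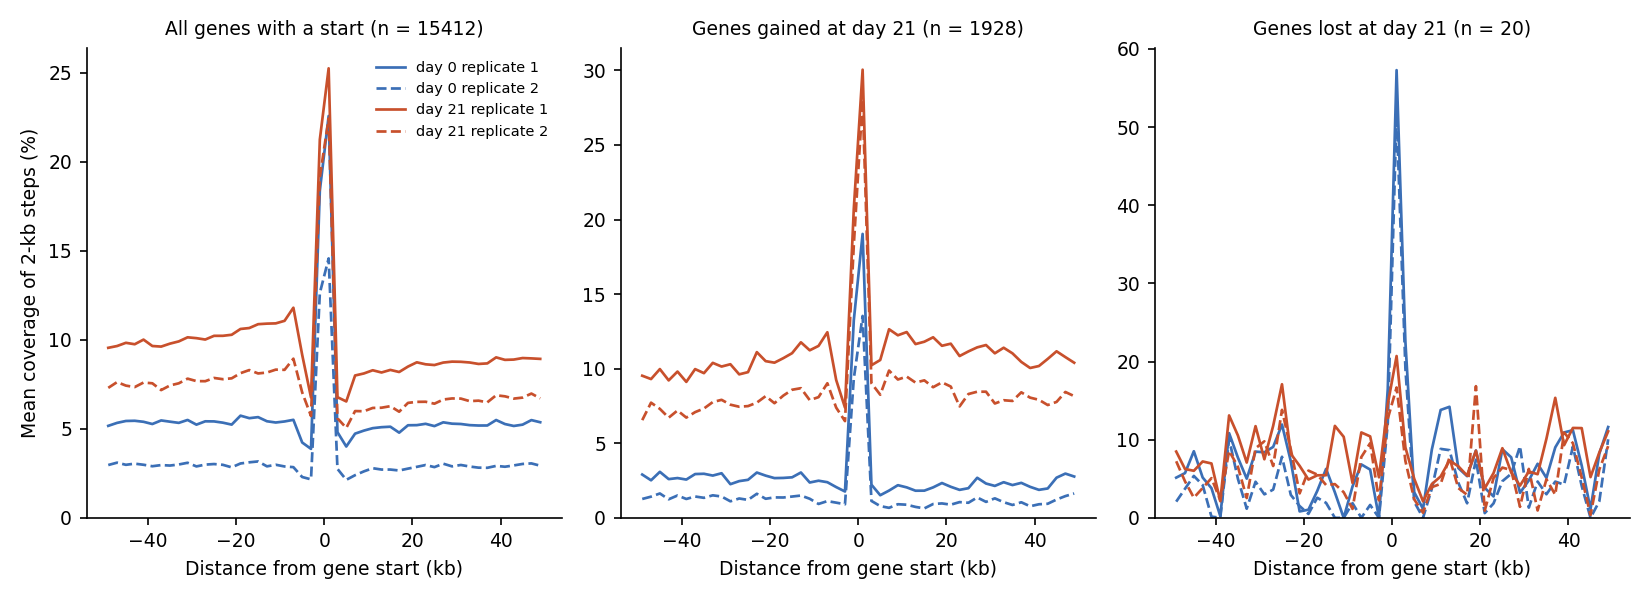
Mean percent of 2-kb steps inside peaks against distance from the gene start (kb, in the direction of transcription) for all genes with a start, genes gained and genes lost, with blue lines for day 0, red for day 21, solid for replicate 1 and dashed for replicate 2. Lost genes drop from 57.3% and 51.8% to 20.7% and 16.7% just after the start, and gained genes rise along the whole window.

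Promoter windows of 300 bases (250 before the start and 50 after) overlapped a peak in 62.2% and 45.9% of cases at day 0 and in 70.2% and 64.0% at day 21. In all 4 libraries 6684 windows were overlapped, with a median of 23 CG in their 250 upstream bases. The 732 windows overlapped in both day 21 libraries and in neither day 0 library had a median of 9 CG, against 17 over all windows. The reverse pattern held for 26 windows, with a median of 17. Among plasma cell markers, the windows of SDC1, which encodes the surface proteoglycan syndecan-1, CD38, IRF4 and XBP1 were covered by at least 57.3% in each of the 4 libraries. That of PRDM1, a plasma cell transcription factor gene, was covered by 100% in day 21 replicate 1 and by 0% in the other 3. Overlap in all 4 libraries held for 43.4% of all windows, so it does not set SDC1, CD38, IRF4 and XBP1 apart.

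Shares gained differed between the lymphoid gene lists. Shares here and below are of tested members, and genes bare at day 0 were tested only if other libraries covered them. The Fc receptor-like and SLAM family genes, receptors of lymphocytes clustered on chromosome 1, had 9 of 17 tested members higher (52.9%, against 17% of all tested genes) and 0 lower. Their median change was 15.2 points, against 2.42 over all tested genes. Over all 17 members the median coverage was 10.5% and 3.89% at day 0 and 30.2% and 25.7% at day 21. SLAMF1 went from 7.18% and 0% to 31.1% and 28.0% (change 26.0, SE 3.97, adjusted p = 0.000526). FCRL3 went from 9.29% and 9.65% to 41.6% and 30.2% (change 26.4, SE 5.56, adjusted p = 0.00382). FCRL5 went from 11.8% and 2.94% to 32.9% and 27.8% (change 23.0, SE 5.14, adjusted p = 0.00560), and it was the 1 of 15 tested plasma cell identity genes that passed. In all 3 genes both day 21 libraries lay above both day 0 libraries, as in 2368 of the 2370 genes called gained and in 47% of all tested genes. SLAMF8 changed by 30.1 points.

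T and NK cell genes had 11 of 27 tested members higher (40.7%, against 17% of all tested genes) and 0 lower. CD5, a T cell surface receptor, went from 9.83% and 1.13% to 28.8% and 25.0% (change 21.4, SE 4.03, adjusted p = 0.00189). GZMB, the granzyme B gene, had no peak at day 0 and was 25.4% and 52.8% covered at day 21, and FCGR3A, the Fc receptor CD16 of NK cells, went from 4.6% and 0% to 21.5% and 37.1%. The replicates of day 21 were wide apart in both genes. Of the B cell genes silenced in plasma cells 5 of 26 passed as higher, or 19.2%, near the 17% of all tested genes. CD72 went from 4.97% and 0.0786% to 24.3% and 14.0%, and BLNK, a B cell receptor adaptor, from 0.279% and 0% to 12.6% and 8.55%.

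Monocyte, macrophage and granulocyte genes had 6 of 29 tested members higher, or 20.7%, near the 17% of all tested genes. CD14, the endotoxin coreceptor of monocytes, had no peak at day 0 and was covered by 85.8% and 73.1% at day 21 (change 79.4, SE 20.2, adjusted p = 0.0121). CSF1R went from 7.52% and 2.09% to 28.7% and 19.1% (change 19.1, SE 4.89, adjusted p = 0.0127), and S100A12 from 28.4% and 0% to 80% and 80.5%. LYZ, the lysozyme gene, went from 0% in both libraries to 15.6% and 14.7% (adjusted p = 0.00515), while CD163 had no peak in any of the 4. Chemokine receptor genes had 4 of 21 higher, or 19.0%, also near 17%. Among them were CCR3 (0% and 0% to 10.3% and 11.2%) and CCR9 (0% and 0% to 21.4% and 10.1%). Of the plasma cell identity genes 1 of 15 tested passed (6.67%), all 15 changes were positive and their median was 3.06 points. SLAMF7 had 36.8% and 28.0% at day 0 and 42.5% and 51.6% at day 21 (adjusted p = 0.279), and XBP1, a secretory transcription factor gene, had 3.09% and 5.99% at day 0 and 19.1% and 4.16% at day 21 (adjusted p = 0.294). TNFRSF17, a cytokine receptor gene, had no peak in the 4 libraries, and the PRDM1 gene body was covered by at most 0.792%.

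Neural and channel gene lists lay on both sides of the 17% of all tested genes. Of 12 tested synaptic adhesion and other very long neural genes 8 passed as higher, with a median change of 2.86 points. That is 66.7%, against 56.5% of all tested genes of 200 kb or more, and the list's median length was 963 kb. KIRREL3 went from 2.82% and 1.07% to 14.4% and 8.39%, DSCAML1 from 6.40% and 2.59% to 19.1% and 14.8%, and UNC5C, a netrin receptor gene, from 0.259% and 0.426% to 8.93% and 6.68%. Only 12 of the 54 listed genes had enough coverage to be tested, and over all 54 the median was 0.108% and 0.0288% at day 0 and 0.437% and 0.213% at day 21. Of 24 tested glutamate and GABA receptor genes 8 passed as higher. That is 33.3%, near the 34.4% of all tested genes of 50 to 200 kb, and the list's median length was 146 kb. Among the 8 were GABBR2 (3.32% and 0.693% to 15.8% and 12.2%) and the neighbours GABRR1 (0% and 0% to 9.27% and 12.7%) and GABRR2 (0% and 0% to 21.7% and 6.30%). Potassium channel genes had 10 of 72 (13.9%), with KCNC4 from 1.51% and 0.00813% to 16.3% and 13.0% (change 13.9, SE 2.08, adjusted p = 0.000457) and KCNAB1 from 0.667% and 0.208% to 16.3% and 12.6%. KCNJ5 changed by 14.4 points. Cadherins and protocadherins had 3 of 22 (13.6%): CDH17 and CDH3 changed by 10.5 and 10.2 points and CDH20 by 1.90.

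Collagen chain genes had 12 of 34 tested members higher, with a median change of 6.86. That is 35.3%, near the 34.4% of all tested genes of 50 to 200 kb, and the list's median length was 145 kb. COL27A1 went from 4.46% and 1.19% to 21.9% and 16.8% (change 16.5, SE 3.89, adjusted p = 0.00761), and COL8A2 and COL15A1 changed by 23.9 and 12.9 points. Of 26 tested integrin genes 5 passed, or 19.2%, near the 17% of all tested genes. Among them were ITGB6 (0.938% and 0.332% to 10.2% and 8.72%), ITGA10 and ITGA2, the last with −0.894 after scaling. Of 12 tested secreted Wnt antagonist genes 3 passed, or 25%, against 17% of all tested genes. They were SFRP4 (0% and 0% to 13.4% and 16.1%, change 14.8, SE 2.57, adjusted p = 0.00113), SOST (15.1% and 0% to 31.8% and 40.5%) and DKK3 (change 16.8). SOST was already 39.1% and 31.8% covered in the untreated parental line, so clone 8 at day 21 lay near the level of that line. Olfactory receptor genes had 12 of 89 (13.5%). OR5AU1 was at 0% in both day 0 libraries and at 80.8% and 81.7% at day 21. OR5B21 and OR4D1 changed by 48.2 and 20.8 points. Of the 239 olfactory receptor genes listed, 149 had no peak in any of the 4 libraries.

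HOX and developmental genes, the classical Polycomb targets, are mostly short, and their shares gained (8.57% and 5.61%) stood beside 5.65% of all tested genes of 1 to 10 kb and 17% of all tested genes. HOX cluster genes, which pattern the body axis, had 3 of 35 higher, among them HOXD3 (0% and 0% to 16.7% and 8.44%) and HOXA3 (10.6% and 6.03% to 17.7% and 16.2%, negative at −2.64 after scaling). Over all 39 HOX genes the mean coverage was 25.3% and 10.7% at day 0 and 26.2% and 22.6% at day 21, and replicate 1 was thus almost level. Of 107 tested developmental transcription factors 6 rose and 2 fell. MYF5, a muscle regulator, went from 0% and 0% to 41.2% and 66.4%, and GBX1 changed by 17.5 points, or by −2.16 after scaling. The 2 that fell were TBX5 and CDX2, an intestinal regulator, which went from 28.7% and 32.5% to 14.8% and 11.1% (change −17.7, SE 5.14, adjusted p = 0.0244). Keratin and keratin-associated protein genes had 4 of 85 higher (4.71%), among them KRTAP4-4, KRTAP1-5 and KRT84, with changes of 53.3, 52.4 and 30.4 points. Their reads may be shared with close copies in the same cluster, as may those of olfactory receptor genes.

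Zinc finger genes named ZNF had 19 of 316 higher (6.01%, against 17% of all tested genes) and 5 lower, 4 of which are named above. ZNF597 and ZNF513 rose, by 17.1 and 20.4 points. In the housekeeping lists, 2 of 75 tested ribosomal protein genes passed as higher (2.67%), and 0 of 25 proteasome subunit genes. The 2 were RPS24, from 3.26% and 0.828% to 10.2% and 12.2%, and RPL4, with a change of 5.73. None of the 25 tested genes for Polycomb subunits and H3K36 or H3K27 methylation enzymes and none of the 7 tested cell cycle inhibitor genes passed in either direction. The medians of 15 of the 22 lists turned negative after scaling to equal called length, among them those of HOX (−12.5), collagen (−2.54) and potassium channel genes (−3.84), against −1.16 for all tested genes. Those of the Fc receptor-like and SLAM genes (3.54), T and NK cell genes (4.14) and olfactory receptor genes (2.14) stayed positive. Calls after scaling were 10 higher and 13 lower for collagen, 3 and 2 for Fc receptor-like and SLAM, 6 and 2 for T and NK cell, 7 and 1 for synaptic, 6 and 18 for potassium channel, 1 and 6 for HOX, 3 and 26 for developmental and 8 and 78 for ZNF genes.

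**Figure D5:**
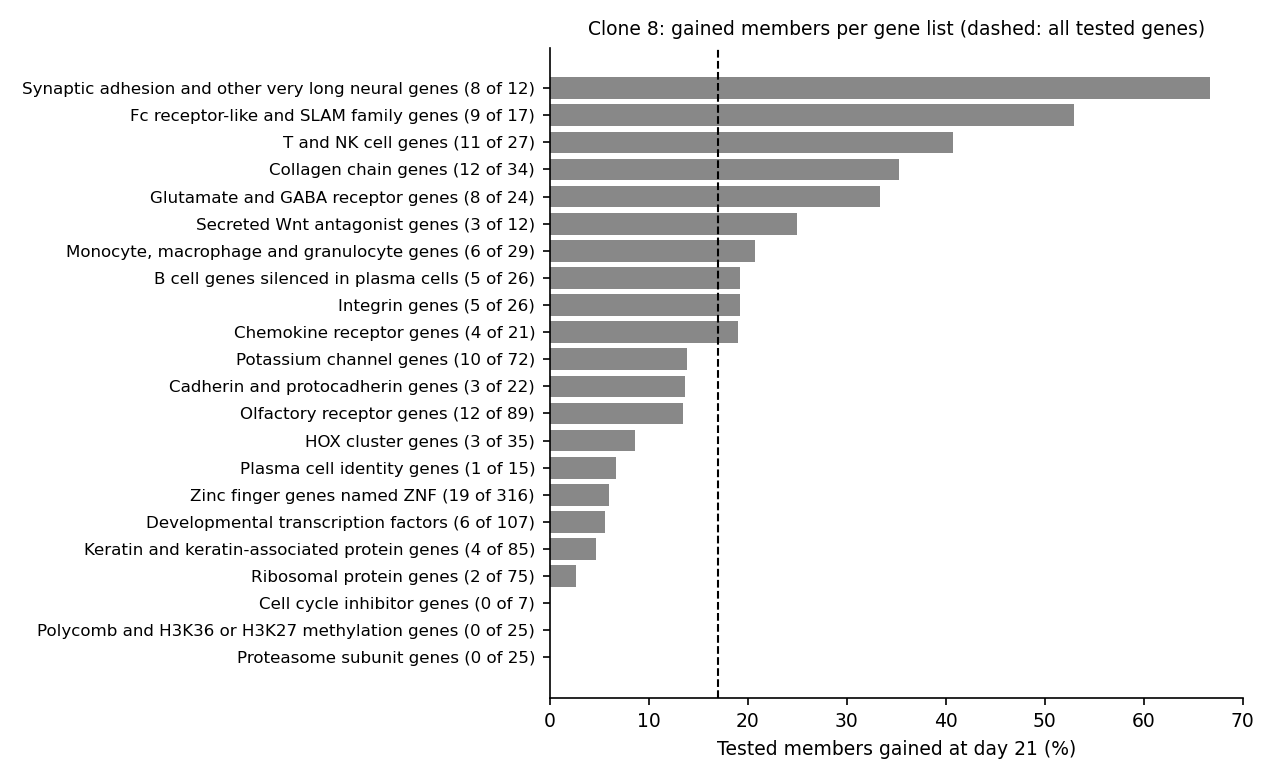
Percent of the tested members of each of the 22 gene lists that passed as higher at day 21 in clone 8 (limma, adjusted p under 0.05), with the counts in the labels and the share over all tested genes (17%) as a dashed line. Synaptic, Fc receptor-like and SLAM, T and NK cell, collagen, and glutamate and GABA receptor lists lie to the right of it. HOX, developmental, olfactory receptor, zinc finger and housekeeping lists lie to the left. Shares are not adjusted for gene length.

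A few genes tied to the translocation were looked at whatever their change. NSD2 (chromosome 4, 1871393 to 1982192) was covered by at most 0.417% and CCND2, a cyclin gene, by at most 1.33% in the 4 libraries, too little to test. FGFR3, the receptor gene beside NSD2, had 44.3% and 9.80% at day 0 and 43.5% and 31.0% at day 21 (change 10.2, SE 15.5, adjusted p = 0.749).

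Clone 11 moved in the same direction in most of these genes. Its libraries are separate from those of clone 8 but entered the same coverage filter and pooled spread. Genes bare at day 0 passed that filter only if other libraries, those of clone 11 among them, covered them. The agreement is therefore conditioned in part on how the genes were selected. Both day 21 libraries of clone 11 lay above both of its day 0 libraries in 91.9% of the 2370 genes gained in clone 8, against 43.6% of all tested genes. Of the 1185 genes gained in clone 11 (8.48% of those tested), 985 were gained in clone 8, which is 83.1% of the clone 11 list and 41.6% of the clone 8 list. Of the 34 genes lost in clone 8, 52.9% were lower in both day 21 libraries of clone 11, against 6.95% of all tested genes, and 7 of the 13 genes lost in clone 11 (0.093%) were among them. In bins, clone 11 had 8665 higher (17.8%) and 25 lower (0.0514%). Clone 11 was also deeper at day 21 than at day 0 (mean pileup ratio 1.63). In the parental line both day 21 libraries were above both day 0 libraries in 20.3% of the genes gained in clone 8, against 18.5% of all tested genes. The parental line had 2 genes higher (0.0143%) and 0 lower at day 21 in limma, with 536 at unadjusted p under 0.05.

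The difference between lines was tested directly. The change in clone 8 was larger than that in the parental line in 234 genes (1.67%) and smaller in 7 (0.0501%), and larger in 1782 bins (3.67%) and smaller in 17 (0.035%). After scaling to equal called length these were 370 and 317 genes, and 1368 and 918 bins. Every left-out library moved the count of larger gene changes by more than 1.5 times, to 759 without clone 8 day 21 replicate 2 and to between 15 and 53 without any other. The larger bin changes were 6103 without that library, 680 without day 21 replicate 1 and 1 to 69 without any other. BHMT, a liver enzyme gene of methionine synthesis, had no peak in either day 0 library or in any of the 4 parental libraries, and was covered by 25.1% and 25.4% at day 21 (difference of changes 25.2, SE 3.84, adjusted p = 0.00786). HPCAL4, a neuronal calcium sensor gene, rose from 20.5% and 11.0% to 44.2% and 48.7%, while the parental line went from 40.5% and 37.0% to 28.6% and 24.4% (difference 42.9, SE 9.58, adjusted p = 0.0341). INHBC (difference 29.9), SLAMF1 (24.8) and CSRP3, a muscle LIM protein gene (23.9), also differed. BHMT, INHBC, CSRP3, SLAMF1 and HPCAL4 passed in clone 11 as well, with gains of 12.5, 23.5, 17.9, 19.9 and 33.6 points. ZNF665 and USP7, a deubiquitinase gene, had smaller changes than in the parental line, by −12.9 and −3.70 points. In USP7 the parental line went from 0.905% and 0% to 4.49% and 4.28% while clone 8 had 1.78% and 0.582% at day 0 and 1.91% and 0.92% at day 21.

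Against clone 11, 2 genes had a larger change in clone 8 (0.0143%) and 0 a smaller one, and 0 bins differed in either direction, with 370 genes and 1543 bins at unadjusted p under 0.05. ZSWIM2, a ubiquitin ligase gene of the testis (chromosome 2, 186827475 to 186849170), had no peak at day 0 in either clone and was covered by 12.0% and 12.2% at day 21 in clone 8 and by 5.45% and 5.61% in clone 11 (difference 6.57, SE 0.896, adjusted p = 0.0146). The other was SPINT4. Left-out libraries gave 0 to 23 genes with a larger change and 0 to 8 with a smaller one. At the earlier times in clone 8, 186 genes passed as higher (1.33%) and 5 as lower (0.0358%) by day 7 and 773 higher (5.53%) and 24 lower (0.172%) at day 14, comparisons that share the day 0 libraries with day 21. The median change of all tested genes was 1.46 points at day 7, 1.21 at day 14 and 2.42 at day 21, so the counts of calls rose between days 7 and 14 while the median did not. In bins the counts were 2947 higher (6.06%) and 13 lower (0.0267%) at day 7 and 6163 higher (12.7%) and 41 lower (0.0844%) at day 14. Day 7 lists covered 96.1 Mb and 110 Mb, day 14 lists 133 Mb and 78.3 Mb.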

How the data were processed

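H3K27me3 CUT&Tag peak lists of 30 libraries in 15 groups of 2 were used, with groups taken from the labels. The groups include NSD2 knockout clones and their own parental line, which entered the coverage filter and the pooled spread. Another 10 libraries, for IgG, H3K27ac and H3K4me3, were not analysed here. The submitters' processing notes name fastp 0.24.0, Bowtie2, SAMtools, Picard, MACS3 3.0.2 and hg38, without roles, and do not say whether a control library entered the peak calls. In each deposited list the authors give, per peak, a score (10 times the −log10 q), a fold enrichment ratio and −log10 p and q values. No read counts were used, so the depth was estimated as the background pileup that gave the fold and −log10 p of the shortest 2% of peaks.

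Peaks were merged per library, and the percent of bases covered was computed for 25-kb autosomal bins and for protein-coding gene bodies of at least 1 kb. Overlaps between peak lists were counted with bedtools 2.31.1. Features with a mean of 1 to 99% over all libraries were fitted in limma 3.58.1 (R 4.3.3) as 15 group means with 15 residual degrees of freedom, and p-values were adjusted by Benjamini-Hochberg over all features. Every adjusted p in the text comes from this fit, and SE is its standard error in percentage points. The code was tested on simulated data. Single values were compared by an exact two-sided permutation test. Promoters of RefSeq GRCh38.p14 matched 15412 of 19451 genes by symbol.

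Named genes were the 10 largest gains and losses of at least 10 kb without overlap between days, the 5 largest gains of at least 200 kb, up to 3 called genes per list, and the genes of at least 10 kb that differed most from the parental line and clone 11. Cell type markers and genes tied to the translocation were added. Some genes that the rule names are not reported here. The comparison, members and gene lists were chosen with earlier results of these data known.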

Additional observations from a re-analysis of the deposited data

Results flagged for a closer look

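The results here were picked out because the change from day 0 to day 21 differed between clone 8 and another line in the limma test of the difference itself. Against the parental line 234 genes had a larger change and 7 a smaller one, and 1782 bins a larger change and 17 a smaller one. Against clone 11 the change was larger in 2 genes.

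Among named genes, the change in clone 8 exceeded that in the parental line by 42.9 points in HPCAL4, 29.9 in INHBC, 25.2 in BHMT, 24.8 in SLAMF1 and 23.9 in CSRP3. It was below that of the parental line in ZNF665, by −12.9 points, and in USP7, by −3.70 points. The change in ZSWIM2 exceeded that in clone 11 by 6.57 points. Mean pileup rose 1.61-fold in clone 8, 1.63-fold in clone 11 and 1.42-fold in the parental line over the same days. With pileup as a covariate in the same fit, 486 genes had a larger and 64 a smaller change than in the parental line, and 2504 bins a larger and 226 a smaller one. Against clone 11 the count of genes with a larger change was again 2.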

How the results depend on the processing

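The counts for clone 8 at day 21 against day 0 depended on nearly every setting, and the cause was not tested. Genes gained and lost were 1478 and 2651 when scaled by called length, 160 and 148 with lists of equal length, 1334 and 236 with pileup as a covariate, 5 and 1 for peaks with a −log10 q of at least 5, 1 and 3 for a fold of at least 4, and 1091 and 13 with peaks joined over 3 kb. They were 0 and 0 with only the 4 compared libraries and 17 and 2 with the 8 clone 8 libraries. Day 0 replicate 1 against day 21 replicate 2, chosen after seeing the data, gave 135 and 18. Leaving out 1 library gave 689 to 2546 gained and 9 to 50 lost. Bins gained and lost under the same settings were 11293 and 5149, 733 and 579, 9966 and 1062, 16 and 1, 1 and 1, 8769 and 15, 7164 and 28, 5976 and 43, and 1632 and 16. Without a filter they were 11469 and 43, and with 1 library left out 6064 to 17961 and 15 to 104.

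The replicate number tracked a difference between libraries, and the main fit has no term for it. Libraries with the lower number had the longer list in 13 of the 15 groups. They had the greater length of strong peaks in all 15 and the higher pileup in 12. Their deviations were correlated at 0.199 over genes and 0.215 over bins between day 0 and day 21. Across all pairs of days of the clone the correlations were 0.0689 to 0.358 over genes and 0.0266 to 0.396 over bins. What the number stands for was not tested. With the replicate block 2960 genes were gained and 50 lost, and 19431 bins were gained and 138 lost.

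Genes with a larger and a smaller change than in the parental line were 370 and 317 when scaled, 486 and 64 with the pileup covariate, 1 and 0 at a −log10 q of at least 5, and the larger ones 9 with lists of equal length. With 1 library left out they were 15 to 759 and 0 to 36. Bins with a larger change were 11 with lists of equal length, 1 at a −log10 q of at least 5 and 1 to 6103 with 1 library left out. Bins with a smaller change were 918 when scaled, 226 with the pileup covariate, 0 at a −log10 q of at least 5 and 0 to 18 with 1 library left out. Against clone 11, genes with a larger change were 1 when scaled, 0 with lists of equal length and 0 to 23 with 1 library left out, and those with a smaller change 0 to 8. Bins with a larger change were 1 with lists of equal length, 1 at a −log10 q of at least 5 and 0 to 80 with 1 library left out, and those with a smaller change 3 with lists of equal length and 0 to 4.

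The called length difference was 58.1 to 99.8 Mb with 1 library left out, in the same direction as with all 4. The share of day 21 peaks over a day 0 peak was 18.1% at a reciprocal overlap of 50% and 21.1% to 36% with 1 library left out.

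Some named features changed sign. When scaled, HOXA3 was −2.64, GBX1 −2.16 and ITGA2 −0.894. With lists of equal length CXCR5 was −3.70, ISM2 −0.031, KRT84 −6.10, COL8A2 −6.95, COL15A1 −0.154, SLAMF8 −1.44, ITGA2 −1.37 and DKK3 −2.21. At a −log10 q of at least 5 CXCR5 was −6.53, ISM2 −0.102, KRT84 −6.10, COL8A2 −3.30, ITGA2 −0.131 and DKK3 −0.106. At a fold of at least 4 KCNJ5 was −1.71, FCRL3 −2.99, FRAT1 20.0 and the run of gained bins on chromosome 1 from 162625001 −0.268. Of the 85 called genes followed through the alternatives, 85 kept their call with the replicate block, 72 without a filter, 56 when scaled and 30 with peaks joined. The peak lists carry no read counts, so depth limits weak peaks by an amount that could only be estimated.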
